A study of Mus musculus with 10 samples.

Results

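The iron and oxoglutarate dependent dioxygenases described here are 36 genes that were chosen by name, by a rule that uses no measured value: 13 histone lysine demethylases, 3 Tet methylcytosine dioxygenases, 9 genes of the AlkB family including *Fto*, 6 collagen prolyl and lysyl hydroxylases, and the 5 genes *Jmjd6*, *Asph*, *Phyh*, *Bbox1* and *Tmlhe*. The hydroxylases that act on HIF, the hypoxia inducible factor, were left out of this set by the rule. All 36 genes were found by symbol on the array, with 63 of its 55681 probes, out of 34797 gene symbols in all. A gene was tested when at least 1 of its probes was well above background in both dyes on at least 5 of 10 arrays, which held for 34 of the 36 genes and 52 of the 63 probes. *Bbox1* and *Kdm4d* did not reach this level and are described by their values alone.

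These enzymes share a single chemistry. An iron ion held in the catalytic site binds 2-oxoglutarate and molecular oxygen, the oxoglutarate is turned into succinate and carbon dioxide, and the substrate is hydroxylated, which for methyl groups on nitrogen ends in demethylation. The substrates differ widely and include methylated lysines of histones, methylcytosine in DNA, methylated bases in RNA, proline and lysine residues of collagen, the branched fatty acid phytanate, and precursors of carnitine. Desferrioxamine (DFO) is a chelator that binds iron, the cofactor of every enzyme in the set, while the arrays measure the RNA of these genes and not the activity of the enzymes.

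RNA was measured in epididymal white adipose tissue (eWAT), the fat pad along the epididymis, of 10 adult male C57BL/6JOlaHsd wildtype mice (strain label C57BL/6J) of 1 group. All mice received a purified low fat diet for 3 weeks and then a high fat diet for 12 weeks at 29 °C. They were then injected each day for 5 days with DFO at 100 mg/kg body weight, and tissue was taken on day 6 after food had been removed for 2 h. The RNA of a mouse, in Cy5, was hybridised to a two-colour array of its own together with a Cy3 pool of RNA from all mice of the wider study, control mice included, and 5 slides carried the 10 arrays in pairs.

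No control mice were analysed here, so the effect of DFO on any of these genes could not be measured. The question that the arrays answer is how far the genes differ between mice that were treated alike. Values are given as the log2 ratio of a mouse to the pool, where a difference of 1 between mice is a doubling of RNA and 0 is the level of the pool. Every mouse was labelled with Cy5, so a dye bias of a probe cannot be taken out of its log2 ratio, and differences between mice are read in place of distances from 0. The pool was the same RNA on every array, so the standard deviation (SD) of its Cy3 signal served as the technical spread against which the Cy5 spread between mice was set.

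The mice did not form a uniform group over the whole array. On the first component of all tested probes, with 76.2% of the variance, mice 4, 5, 6 and 7 lay apart from the other 6. The mean log2 ratio of 11 tested adipocyte markers of a list of 12 was -2.34 to -1.30 in mice 4 to 7 and -0.18 to 0.65 in the others. For 12 macrophage markers, all tested, it was 0.82 to 1.10 and -1.30 to -0.10. The means of the endothelium, mesothelium, lymphocyte and blood lists were lower in mice 4 to 7 without overlap (-0.68 to -0.41, -1.52 to -1.05, -0.53 to -0.31 and -1.32 to -0.85, against -0.01 to 0.28, -0.52 to 0.33, -0.13 to 0.23 and -0.57 to 0.47). Single genes of these lists did not all follow the means. Endothelial *Cdh5* did, with -1.38 to -0.59 in mice 4 to 7 against -0.07 to 0.55. Endothelial *Kdr* had 0.01 to 0.19 against -0.16 to 0.68, and lymphocyte *Cd3e* had -0.08 to 0.21 against -0.12 to 0.79. *Pf4* of the blood list had 0.12 to 0.40 against -0.21 to 0.14. These examples were chosen after their values were seen. The defining adipocyte genes *Adipoq* and *Fabp4* had mean log2 Cy5 signals of 15.29 and 16.89 and were therefore present, as the tissue label requires. In bulk tissue fewer cells of a type and less RNA per cell cannot be told apart, and the part of cell content in the differences described below was not tested. Mice 4 and 7 each shared a slide with 1 of the other mice, mouse 3 on slide 2 and mouse 8 on slide 4, which allowed values to be compared within a slide.

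Of the 34 genes tested, 18 varied more between mice in Cy5 than the pool did in Cy3, and none varied less (Pitman-Morgan test for paired variances, Benjamini-Hochberg adjusted over all probes). This is 52.9%, against 62.3% of all 18652 genes tested, a difference in shares that was not tested. The count depended on the scaling, with 8 genes after median centring (41.2% of all genes), 4 without normalization between arrays (19.4%) and 11 with the slide as a block (43.9%). The slide as a block ended the calls of *Kdm2a*, *Kdm4a*, *Alkbh1*, *Alkbh8*, *P4ha1*, *Plod1* and *Plod3*. The median SD of the log2 ratio over mice was 0.13 for the set and 0.19 for all genes. Below, an SD given for a gene is that of its log2 ratio unless a dye is named. The adjusted p beside it belongs to the test of Cy5 spread against Cy3 spread and not to that SD. Over single probes, 22 of 52 passed, against 59.8% of all probes. The collagen hydroxylases had the highest share with 5 of 6, followed by 7 of 12 histone demethylases, 2 of 4 other hydroxylases and 4 of 9 genes of the AlkB family. None of the 3 *Tet* genes passed, at an unadjusted p under 0.05 either. These shares were not tested against each other.

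**Figure D1:**
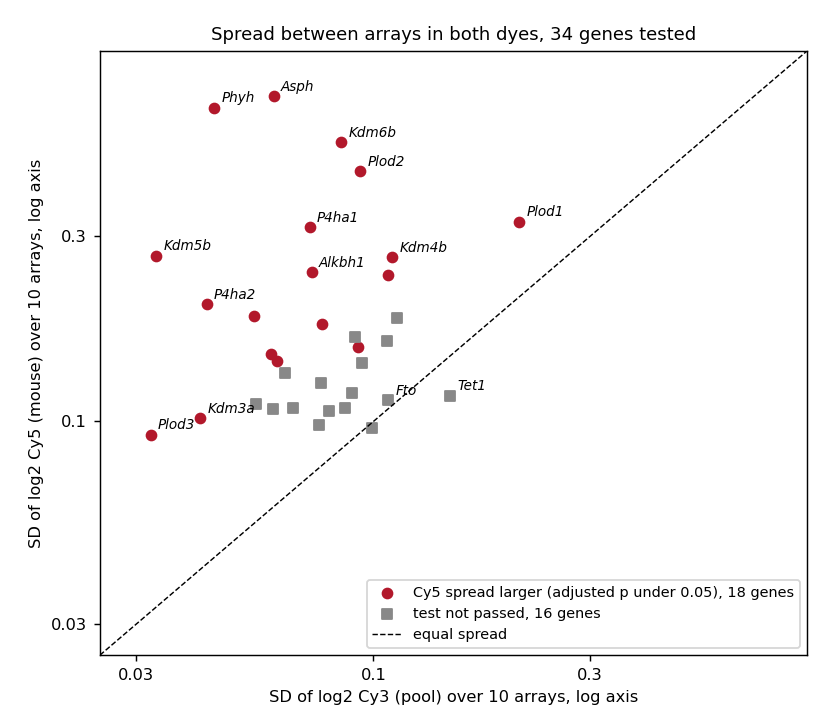
SD of log2 Cy5 (10 mice, vertical) against SD of log2 Cy3 (the pool on the same 10 arrays, horizontal) for the 34 genes tested, 1 probe each, both on log axes. The 18 red circles passed the test for a larger Cy5 spread, with *Asph* and *Phyh* highest at 0.69 and 0.64, and the grey squares did not. The dashed line marks equal spread, and distance from it alone does not separate the calls. The Cy5 SD over the Cy3 SD was 2.09 for *Kdm4c*, which did not pass, and 1.56 for *Plod1*, which did.

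Much of the spread followed the same division of the mice as the array as a whole. Mice 4, 5, 6 and 7 had the 4 lowest log2 ratios for 9 of the 34 genes (26.5%, against 24.6% of all genes), namely *Kdm2a*, *Kdm4b*, *Kdm5b*, *Kdm6b*, *Alkbh2*, *Alkbh6*, *P4ha2*, *Asph* and *Phyh*. They had the 4 highest for 5 genes (14.7%, against 19.5% of all genes), namely *Alkbh1*, *P4ha1*, *Plod1*, *Plod2* and *Jmjd6*. Both shares were close to those of genes in general, and both depend on how the arrays were scaled. Centring each array on its median in place of loess left 1 gene with mice 4 to 7 lowest (*Kdm6b*) and 4 with them highest (the 5 above without *Jmjd6*). Under this median centring mouse 3 had the lowest value of all mice for 30 of the 34 genes, and the median log2 ratio of all tested probes was -0.14 in mouse 3 against 0.27 to 0.53 in the others. In the deposited normalized values 6 stayed lowest, all of the 9 but *Alkbh6*, *P4ha2* and *Phyh*, and 5 were highest, with *Alkbh7* in place of *Alkbh1*.

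Without mice 4, 5, 6 and 7 the number of genes with a larger Cy5 spread fell from 18 to 3 of 34, against 15.9% of all genes. These 3 were *Asph*, *Phyh* and *Kdm4c*, of which *Kdm4c* had not passed with all 10 mice (adjusted p = 0.0618). Leaving out 1 mouse at a time kept the call of 10 of the 18 genes in every case, and the other 8 lost it without at least 1 mouse, as given below. The slide gave no call for the 34 genes, nor for any of the 18652 genes tested (limma moderated F test, Benjamini-Hochberg adjusted). With 2 arrays a slide, and with slides 2 and 4 each holding mice from both sides of the division, that division enters the spread within slides. This limits what the slide test could detect. None of the 34 had an unadjusted p under 0.05 either (5 with median centring and 1 with the scanner's log ratio), while 4.19% of all genes did.

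**Figure D2:**
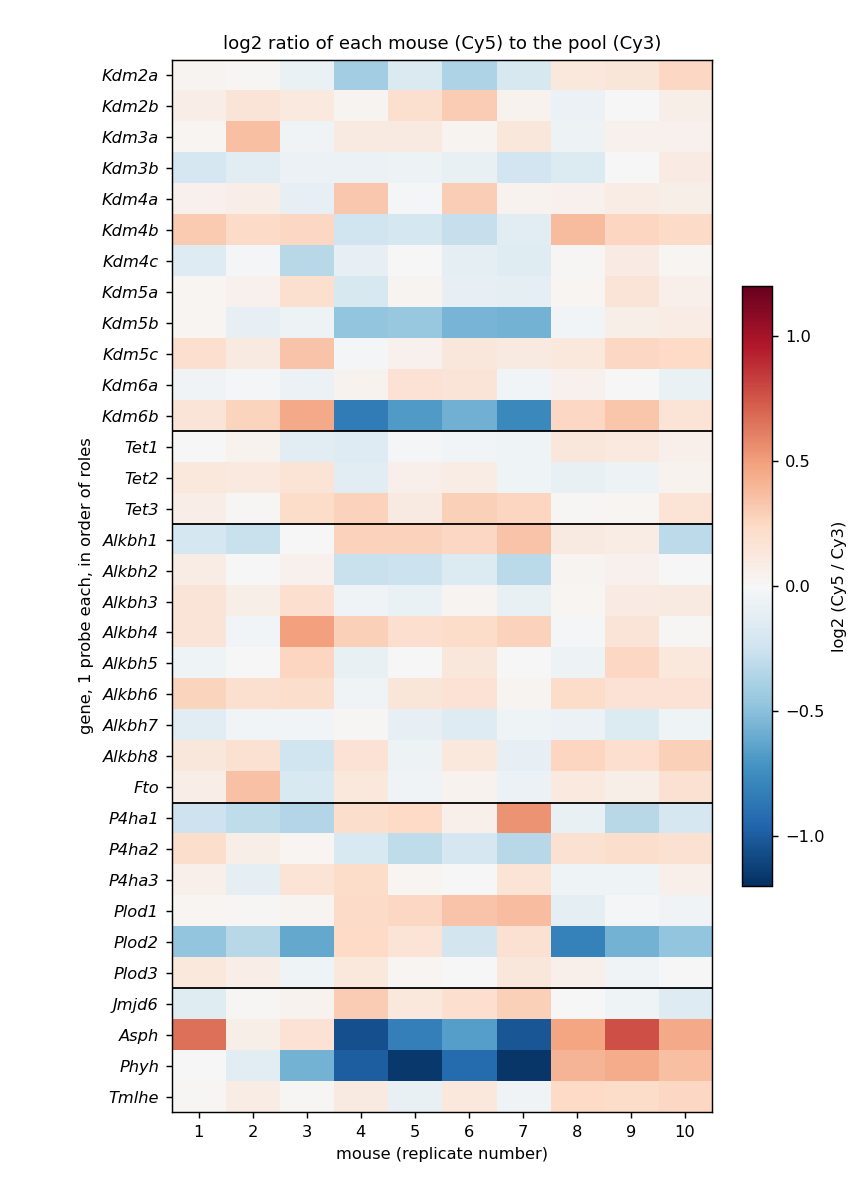
Log2 ratio of each of 10 mice to the pool (colour scale, red above and blue below the pool) for the 34 genes tested, with black lines between the role groups. Mice 4 to 7 stand out in blue for *Kdm6b*, *Kdm5b*, *Asph* and *Phyh* and against bluer neighbours for *Plod2* and *P4ha1*, while the rows of the *Tet* genes stay pale.

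Among the histone demethylases, *Kdm6b*, which removes methyl groups from histone H3 at a lysine that Polycomb proteins methylate and is known as a gene induced in activated macrophages, differed most between mice. Its log2 ratio had a lowest value of -0.84, a median of 0.16 and a highest value of 0.45 over the 10 mice. Mice 4, 5, 6 and 7 had -0.84, -0.68, -0.58 and -0.77, and the other 6 lay between 0.15 and 0.45, so that the values did not overlap. The SD was 0.52 (n = 10, adjusted p = 1.43e-04), and the highest mouse was 2.45-fold above the lowest. Within slides mouse 4 minus mouse 3 came to -1.29 and mouse 8 minus mouse 7 to 1.02, with signs that follow from the lack of overlap. The mice with low *Kdm6b* were thus those with the higher macrophage markers. *Kdm6a*, its relative on the X chromosome with the same substrate, stayed within -0.08 and 0.18 and did not pass the test (adjusted p = 0.132).

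*Kdm5b*, a demethylase of the methylated lysine that marks active promoters, was the next in order. Its strongest probe ranged from -0.56 to 0.09 with a median of -0.08 (SD 0.27, n = 10, adjusted p = 2.94e-05), with -0.56 to -0.45 in mice 4 to 7 and -0.09 to 0.09 in the others. The gene has 2 more tested probes near it, and they did not show this. On build mm9 the first lies at chr1:136528046-136528105, and the others at chr1:136527740-136527799 and chr1:136528957-136529016, which is on either side of it. By these probes mice 4 to 7 had -0.15 to 0.27 and -0.20 to 0.07, against 0.04 to 0.34 and -0.04 to 0.23 in the other mice, and neither passed (adjusted p = 0.646 and 0.879). The *Kdm5b* result is therefore that of 1 probe of 3. *Kdm5a* passed with a smaller SD of 0.12 (adjusted p = 0.00973, not without mouse 4), and *Kdm5c* did not (SD 0.10, adjusted p = 0.454).

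*Kdm4b*, which acts on methylated lysines of histone H3 in heterochromatin and is a known target gene of HIF, had a lowest value of -0.28, a median of 0.23 and a highest value of 0.38. Mice 4 to 7 lay at -0.28 to -0.14 and the other 6 at 0.23 to 0.38, without overlap (SD 0.26, n = 10, adjusted p = 0.0348). The call held in 4 of 10 fits that left out 1 mouse and was lost without mouse 1, 4, 6, 7, 8 or 10. *Kdm2a*, a demethylase that binds CpG islands, showed the same division, with -0.41 to -0.18 in mice 4 to 7 and -0.08 to 0.25 in the others (SD 0.22, adjusted p = 0.0451), and both of its tested probes passed. Its strongest probe kept the call in 2 of 10 such fits, those without mouse 2 or mouse 6. *Kdm4a* passed with a lowest value of -0.10, a median of 0.06 and a highest value of 0.32 (SD 0.13, adjusted p = 0.0311), with mice 4 and 6 above the rest, and lost the call without mouse 3, 4 or 6.

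*Kdm3a*, a demethylase of histone H3 that is a known HIF target and is needed for sperm formation, had a different pattern. Its log2 ratios in mice 1 to 10 were 0.02, 0.36, -0.04, 0.11, 0.11, 0.04, 0.14, -0.07, 0.05 and 0.05. Mouse 2 was the highest by a wide margin and the other 9 lay within -0.07 and 0.14. The SD was 0.12 (n = 10, adjusted p = 0.0317), and the call was lost without mouse 1, 2 or 3. Mouse 2 also had the highest mean of the sperm markers, -0.34 against -2.11 to -1.34 in the other mice, over 5 tested genes of 12, and their part in the *Kdm3a* value was not tested. Of the sperm markers, *Tnp2*, *Akap4*, *Odf1*, *Smcp*, *Ldhc*, *Pgk2* and *Acrv1* were not well above background on enough arrays to be tested. *Kdm2b*, *Kdm3b*, *Kdm4c*, *Kdm5c* and *Kdm6a* did not pass, with SDs of 0.09 to 0.12, and the only probe of *Kdm4d* was not well above background on any array in either dye.

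The *Tet* genes, whose proteins oxidise methylcytosine in DNA, had the lowest median SD of the role groups. The strongest probe of *Tet2* had a lowest value of -0.13, a median of 0.05 and a highest value of 0.16 (SD 0.10, n = 10, adjusted p = 0.141). *Tet1* and *Tet3* had SDs of 0.10 and 0.11 (adjusted p = 0.387 and 0.944), and their Cy5 spread was no larger than that of Cy3 (0.12 and 0.10 in Cy5, 0.15 and 0.10 in Cy3). None of the other *Tet2* and *Tet3* probes tested passed either.

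In the AlkB family, some of whose members remove methyl groups from bases of DNA and RNA, the most variable gene was *Alkbh1*, whose protein demethylates transfer RNA. It had a lowest value of -0.32, a median of 0.10 and a highest value of 0.34 (SD 0.25, n = 10, adjusted p = 0.00645). Mice 4 to 7 were the highest with 0.25 to 0.34, and mice 1, 2 and 10 the lowest with -0.32 to -0.21. *Alkbh2*, a DNA repair enzyme, ran the other way, with -0.33 to -0.16 in mice 4 to 7 and 0.00 to 0.09 in the others (SD 0.16, adjusted p = 0.00136). Both kept their calls without any 1 of the mice, while *Alkbh1* lost it with the slide as a block. *Alkbh6* and *Alkbh8* passed with Cy5 SDs of 0.16 and 0.18 against Cy3 SDs of 0.09 and 0.08 (adjusted p = 0.0344 and 0.04). The SDs of their log2 ratios were 0.09 and 0.17. *Alkbh6* lost its call without mouse 3, 4, 6 or 7, and *Alkbh8* without mouse 1, 3, 6, 7, 8 or 10.

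*Fto*, the demethylase of methyladenosine (m6A) in RNA that is known from its genetic link to obesity, had a lowest value of -0.18, a median of 0.08 and a highest value of 0.35. Mouse 2 was the highest and mouse 3 the lowest, and the Cy5 spread of 0.11 equalled the Cy3 spread of 0.11 within rounding (adjusted p = 0.912). *Alkbh5*, the second m6A demethylase, was measured by 3 probes with different results. Its strongest probe did not pass (SD 0.13, adjusted p = 0.591), while another had 0.38 to 0.47 in mice 4 to 7 and 0.19 to 0.30 in the others (SD 0.10, adjusted p = 0.0227). *Alkbh7*, a mitochondrial member of the family, had the smallest SD of the log2 ratio among the genes tested (SD 0.06, adjusted p = 0.187). Its values lay between -0.16 and 0.02. Its Cy5 SD of 0.12 was not the smallest, and that of *Plod3*, for example, was 0.09. The place of *Alkbh7* also depended on the scaling. In the deposited normalized values its SD was 0.12, above the 0.08 of *Alkbh3*, and mice 4 to 7 were its highest. *Alkbh3* and *Alkbh4* did not pass (adjusted p = 0.0648 and 0.138).

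The collagen hydroxylases gave the clearest contrast between close relatives. *P4ha1*, *P4ha2* and *P4ha3* encode the catalytic subunits of prolyl 4-hydroxylase, which stabilises the collagen triple helix, and *Plod1*, *Plod2* and *Plod3* encode lysyl hydroxylases, which prepare collagen for cross-linking. *P4ha1*, *P4ha2* and *Plod2* are also known targets of HIF, which binds DNA at a short core motif. Only its form ACGTG was searched for here, and other forms of the core, such as GCGTG, were neither counted nor marked. The 250 bases before the start of *P4ha1*, *P4ha2* and *Kdm3a* are shown for the search of ACGTG (RefSeq, GRCm38.p6, at chr10:59323046-59323295, plus strand, chr11:54100674-54100923, plus strand and chr6:71632918-71633167, minus strand, the first of 3 starts of *Kdm3a* in the table). Capitals mark ACGTG or its reverse complement CACGT.
P4ha1: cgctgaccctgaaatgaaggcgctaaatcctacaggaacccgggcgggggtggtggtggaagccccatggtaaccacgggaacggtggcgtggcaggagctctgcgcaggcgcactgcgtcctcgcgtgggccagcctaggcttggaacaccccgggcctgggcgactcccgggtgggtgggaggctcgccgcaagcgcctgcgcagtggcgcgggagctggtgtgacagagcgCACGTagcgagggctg
P4ha2: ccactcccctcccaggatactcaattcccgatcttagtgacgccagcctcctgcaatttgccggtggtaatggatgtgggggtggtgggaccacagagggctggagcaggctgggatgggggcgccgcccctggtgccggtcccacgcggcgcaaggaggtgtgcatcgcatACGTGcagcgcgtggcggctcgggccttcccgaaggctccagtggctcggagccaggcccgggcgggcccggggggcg
Kdm3a: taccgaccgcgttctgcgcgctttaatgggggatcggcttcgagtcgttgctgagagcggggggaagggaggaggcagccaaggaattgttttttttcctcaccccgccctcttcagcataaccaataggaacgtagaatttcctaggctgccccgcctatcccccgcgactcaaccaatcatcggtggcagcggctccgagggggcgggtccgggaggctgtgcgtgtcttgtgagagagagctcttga

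*P4ha1* held 1 match, beginning 16 bases before the start, *P4ha2* held 1, beginning 78 bases before it, and none of the 3 *Kdm3a* windows held any. A search of both strands found ACGTG in 10 of the 28 genes of the set with a promoter in the table. These were *Alkbh4*, *Alkbh7*, *Jmjd6*, *Kdm4c*, *Kdm5b*, *Kdm6a*, *P4ha1*, *P4ha2*, *Plod3* and *Tet2*. In the table as a whole, a share of 16.6% of promoters held ACGTG, or 18.5% of genes in at least 1 promoter. *Plod2*, *Asph*, *Tmlhe*, *Kdm2a*, *Kdm3b*, *Kdm4b*, *Kdm5a* and *Kdm6b* were not in the table. A match describes letters in the window and not binding.

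*Plod2* varied most among the collagen hydroxylases. In mice 1 to 10 its log2 ratios were -0.48, -0.33, -0.61, 0.24, 0.16, -0.22, 0.19, -0.81, -0.57 and -0.47. Mice 4, 5 and 7 were the highest and mouse 6 was next, while the other 6 lay between -0.81 and -0.33, so the values did not overlap. The SD was 0.37 (n = 10, adjusted p = 3.85e-05), and the highest mouse was 2.07-fold above the lowest. Within slides mouse 4 minus mouse 3 came to 0.86 and mouse 8 minus mouse 7 to -0.996.

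*P4ha1* was also highest in mice 4 to 7, though the other mice came in another order than for *Plod2*, with values in mice 1 to 10 of -0.25, -0.31, -0.35, 0.21, 0.24, 0.06, 0.54, -0.09, -0.33 and -0.21. Mouse 7 was the highest, mice 4 and 5 came next, and mouse 6 stood just above the others (SD 0.30, n = 10, adjusted p = 9.08e-04, not called with the slide as a block). A second *P4ha1* probe had a smaller range, -0.28 to 0.15, in which mouse 6 overlapped the other mice, and it did not pass (adjusted p = 0.0945). *P4ha2* ran the other way, with values of 0.21, 0.07, 0.02, -0.19, -0.30, -0.20, -0.33, 0.19, 0.21 and 0.19. The lowest were mice 4 to 7, and the other 6 lay between 0.02 and 0.21 (SD 0.22, n = 10, adjusted p = 5.44e-04). Thus mouse 7 had the highest *P4ha1* and the lowest *P4ha2* value of the 10 mice. Mice 4 to 7 stayed the highest for *P4ha1* under every scaling tried. Their place as the lowest for *P4ha2* was lost with median centring and with the deposited normalized values.

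*Plod1* was highest in mice 4 to 7 by its strongest probe, 0.23 to 0.37 against -0.12 to 0.03 (SD 0.17, adjusted p = 0.0401), but its second probe did not pass (adjusted p = 0.391), and the call held without mouse 8 or mouse 9 only. *Plod3* passed with a Cy5 SD of 0.09 against a Cy3 SD of 0.03 (adjusted p = 0.00175). Its log2 ratio had a small SD of 0.07 (range -0.05 to 0.13), and mice 1, 4 and 7 were the highest there while mice 5 and 6 were among the others. *P4ha3* did not pass (range -0.11 to 0.22, adjusted p = 0.156). The mean of 10 fibrillar and other collagen genes was -0.09 to 0.10 in mice 4 to 7 and -0.34 to -0.03 in the others, and that of 6 fibroblast markers -0.10 to 0.12 and -0.28 to 0.09. Both means overlapped between these mice, but they combine genes that lay on both sides. *Col1a1* had 0.47 to 0.66 in mice 4 to 7 against -1.05 to -0.01 in the others, and *Col4a1* had -0.40 to -0.26 against -0.06 to 0.24, a pair chosen after the values were seen.

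**Figure D3:**
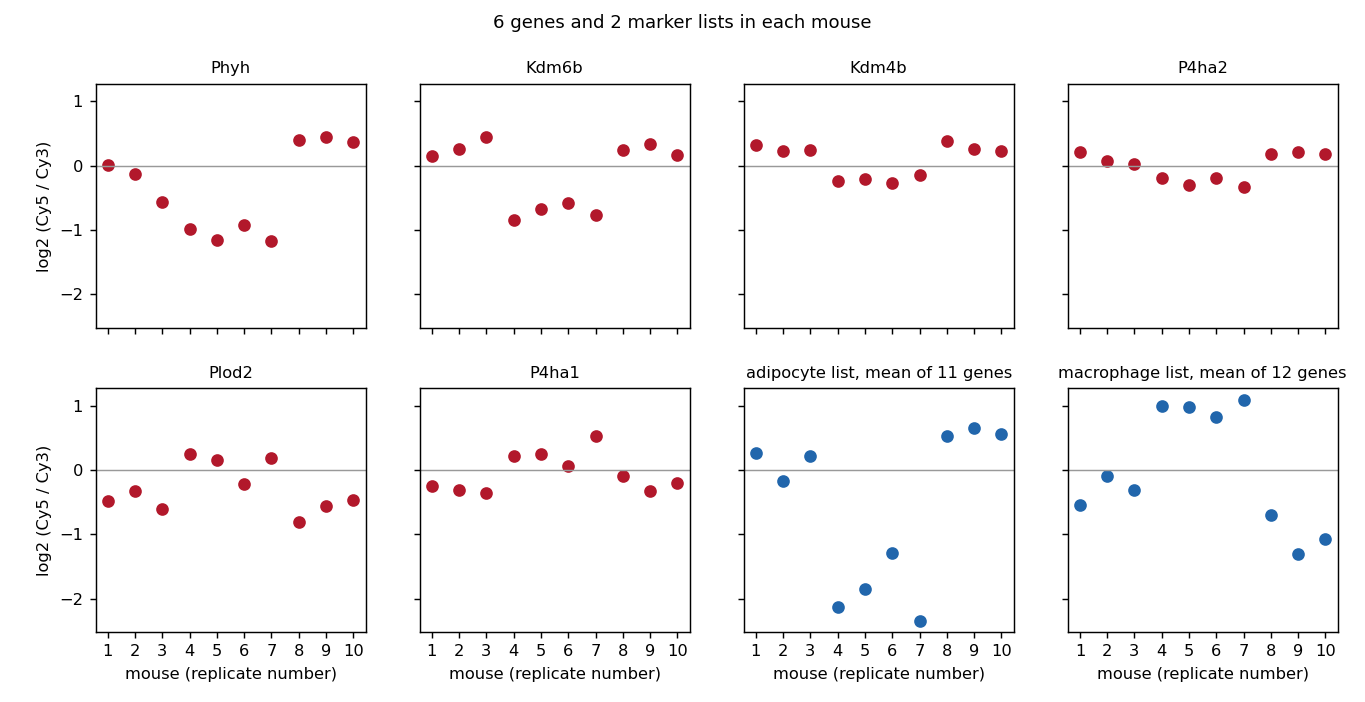
Log2 ratio to the pool in each of 10 mice (horizontal, replicate number) for *Phyh*, *Kdm6b*, *Kdm4b*, *P4ha2*, *Plod2* and *P4ha1* (red), and the mean log2 ratio of the adipocyte and macrophage lists (blue), all on 1 scale. Mice 4 to 7 are below the others in the first 4 genes and in the adipocyte list, and above them in *Plod2*, *P4ha1* and the macrophage list.

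Of the other hydroxylases, *Phyh*, the peroxisomal enzyme that starts the alpha-oxidation of phytanate, was nearly as variable as the leading *Asph* probe. In mice 1 to 10 it had 0.01, -0.12, -0.56, -0.99, -1.16, -0.92, -1.17, 0.41, 0.45 and 0.36. Mice 4 to 7 were the lowest, mouse 3 lay between them and the rest, and mice 8, 9 and 10 were the highest. The SD was 0.67 (n = 10, adjusted p = 5.26e-07), and the highest mouse was 3.06-fold above the lowest. Within slides mouse 4 minus mouse 3 was -0.42 and mouse 8 minus mouse 7 was 1.57. *Phyh* passed under every alternative tried and also without mice 4 to 7 (adjusted p = 0.0218), where its Cy5 SD was 0.36 and its Cy3 SD 0.05. With the deposited values mouse 3 fell among mice 4 to 7, and with median centring it was the lowest of all mice at -0.81, so that the gap below mouse 3 rests on the scaling.

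*Asph* encodes aspartate beta-hydroxylase, which modifies domains of the epidermal growth factor type, and its locus is also known to give shorter proteins without the catalytic part. The array's annotation assigns the 3 tested probes to different RefSeq transcripts, 4, 2 and 2 of them with none shared. The probe with the largest spread (A_52_P306351), at chr4:9502593-9502652 on mm9, had 0.66, 0.07, 0.17, -1.05, -0.82, -0.66, -1.02, 0.47, 0.77 and 0.45 in mice 1 to 10. Far below the rest were mice 4 to 7, and mice 1 and 9 were the highest (SD 0.72, n = 10, adjusted p = 1.70e-06). The highest mouse was 3.55-fold above the lowest. Within slides mouse 4 minus mouse 3 came to -1.23 and mouse 8 minus mouse 7 to 1.49, with signs that follow from mice 4 to 7 being the lowest. Without mice 4 to 7 the probe still passed (adjusted p = 0.0447). With median centring mouse 3 fell to -0.08, below mouse 6 at 0.09.

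The probe A_52_P625171, at chr4:9563054-9563113, had a lowest value of -0.72, a median of -0.15 and a highest value of 0.22, with mice 4 to 7 again lowest at -0.72 to -0.37 and the others at -0.17 to 0.22 (SD 0.28, adjusted p = 0.00167). The third probe, A_55_P2379599 at chr4:9379226-9379285, gave a lowest value of -0.45, a median of -0.09 and a highest value of 0.30 (SD 0.23, adjusted p = 1.21e-04). Here mouse 3 was the lowest and mice 4 to 7, at -0.33 to -0.19, lay above it, so the values overlapped. All 3 probes passed, but their orders of mice differed, and the files do not tell which of them measures the RNA of the catalytic part.

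**Figure D4:**
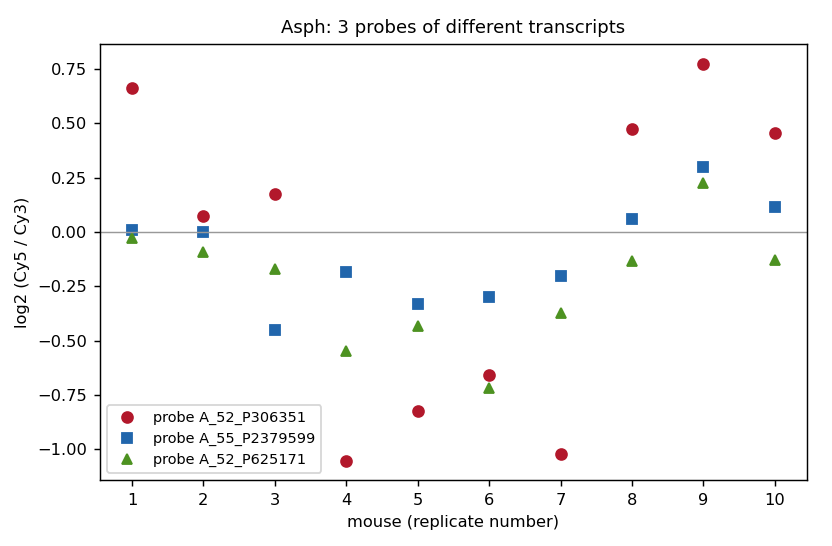
Log2 ratio to the pool in each of 10 mice (horizontal, replicate number) for the 3 tested probes of *Asph*, which the annotation assigns to different transcripts. The probe A_52_P306351 falls to -1.05 in mouse 4 and reaches 0.77 in mouse 9, while A_55_P2379599 is lowest in mouse 3.

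*Tmlhe* and *Bbox1* encode the first and the last enzyme of carnitine synthesis. *Tmlhe* did not pass by either of its probes (SD 0.12 and 0.16, adjusted p = 0.0768 and 0.537). *Bbox1* was well above background in Cy5 in mouse 2 alone, with a log2 Cy5 signal of 9.01, and was not well above background in the other 9 mice (5.77 to 6.16). In Cy3 it was above background on all 10 arrays (6.76 to 7.22), so the pool held this RNA. Mouse 2 thus stood apart in *Bbox1*, in *Kdm3a* and in the mean of the sperm markers, and the part of other tissue in these values was not tested. On the second component of all tested probes, with 8.75% of the variance, mouse 2 also lay apart, at 0.93 against -0.22 to 0.01 in the others. Its difference was therefore not confined to these genes. *Jmjd6*, known as a lysyl hydroxylase of splicing proteins, was highest in mice 4 to 7 (0.13 to 0.30 against -0.15 to 0.04) but did not pass (SD 0.16, adjusted p = 0.223).

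Other genes of these pathways were counted in the same test, 1 probe a gene, and each count stands beside the 62.3% of all genes. A larger Cy5 spread was found for 9 of 17 further oxoglutarate dioxygenases, 11 of 11 partners of collagen modification, 8 of 16 histone lysine methyltransferases, 6 of 8 genes of DNA methylation and its removal, 6 of 9 writers and readers of m6A, 9 of 12 genes of the carnitine and phytanate pathways and 13 of 17 genes of oxoglutarate and ascorbate supply. None of these genes had a smaller one. The median SD of the log2 ratio ran from 0.11 in the m6A list to 0.33 in the supply list.

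In the supply list *Phgdh*, the first enzyme of serine synthesis, had -2.27 to -1.40 in mice 4 to 7 against -0.02 to 0.58 in the others, and *Psat1*, the transaminase of that pathway, which yields oxoglutarate, had -1.22 to -0.50 in mice 4 to 7 against -0.11 to 0.25 in the others. *Gpt*, an alanine transaminase, had -1.78 to -0.88 in mice 4 to 7 against 0.05 to 0.48. In the phytanate pathway *Hacl1*, the lyase that acts after *Phyh*, had -1.33 to -0.55 in mice 4 to 7 against -0.09 to 0.34, and thus lay lowest in the same mice. *Setd7*, a histone lysine methyltransferase, and *Phf8*, another oxoglutarate dependent demethylase, were also lowest in mice 4 to 7, at -1.05 to -0.56 and -0.93 to -0.29.

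Higher values in mice 4 to 7 were found for *Apobec1*, a cytidine deaminase (0.71 to 0.99 in mice 4 to 7 against -1.34 to -0.16), *Uhrf1* and *Dnmt1*, which maintain DNA methylation (0.31 to 0.75 and 0.51 to 0.56, against -1.12 to -0.10 and -0.31 to 0.10), and *Leprel2*, a collagen prolyl hydroxylase (0.23 to 0.62 in mice 4 to 7 against -0.40 to 0.27). *Leprel2* was not separated, since mouse 2 lay above mouse 6. Among the collagen partners *Serpinh1*, the collagen chaperone, had -1.06 to -0.59 in mice 4 to 7 against -0.30 to 0.23, and *Glt25d1*, a collagen galactosyltransferase, had 0.52 to 0.58 in mice 4 to 7 against -0.56 to 0.12. Genes of collagen modification thus lay on both sides in these mice, as *P4ha1* and *P4ha2* did.

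Whether single genes of the set followed gene lists from mouse to mouse was examined in 18 relations, over the 6 mice without mice 4 to 7 where either measure fell into separate clusters and over 10 mice otherwise. None passed after adjustment over the 18 (permutation test, lowest adjusted p = 0.613 for Pearson's r and 0.6 for Spearman's rho). *Phyh* and the adipocyte list had r = 0.70 and rho = 0.89 over 6 mice (exact permutation p = 0.129 and 0.0333), and r = 0.98 without the 2 mice farthest from the median of *Phyh*. *Kdm3a* and the list of 14 HIF targets had r = 0.70 and rho = 0.54 over 6 mice (exact permutation p = 0.0819 and 0.297), and r = 0.56 without the 2 farthest mice.

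*Kdm3a* and the sperm list had r = 0.59 and rho = -0.18 over 10 mice (permutation p = 0.109 and 0.634, adjusted p = 0.613 and 0.963). Without mouse 2 alone r was -0.76, and without the 2 farthest mice it was -0.87, so the positive r rested on mouse 2. With all 10 mice r was 0.91 without background subtraction, 0.89 with the scanner's log ratio and 0.94 with genes filtered on all arrays. *P4ha1*, *P4ha2*, *Plod1*, *Plod2* and *Kdm4b* had r between -0.15 and 0.49 with the HIF target list, and between -0.80 for *P4ha1* and 0.92 for *P4ha2* without the 2 farthest mice. That list had a mean log2 ratio of -0.21 to -0.07 in mice 4 to 7 and 0.01 to 0.17 in the others, and its genes lay on both sides in mice 4 to 7, with *Slc2a1* at 0.91 to 1.45 and *Bnip3* at -1.72 to -0.75, examples chosen after their values were seen. With the collagen list, the 6 collagen hydroxylases had r between -0.49 and 0.46, and between -0.03 and 0.92 without the 2 farthest mice.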

How the data were processed

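The authors deposited 1 scanner file for each array, made with Agilent Feature Extraction 10.7.3.1, and a value table. Per the file headers the scanner files hold spot intensity and local background in Cy5 and Cy3 and a log10 ratio of the dyes. The deposited value table is on a log2 scale and follows the Cy5 signal, with a normalization that is not given in the sources used here.

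Spot means were background corrected with normexp (offset 50), normalized by loess within arrays and Aquantile between arrays (limma 3.58.1, R 4.3.3), and averaged per probe. Probes well above background in each dye on at least 5 of 10 arrays were tested. Each probe's log2 Cy5 and log2 Cy3 variances were compared with the Pitman-Morgan test (scipy 1.17.1), Benjamini-Hochberg adjusted over all probes at a threshold of 0.05. A gene was represented by its probe with the highest mean Cy5 signal. Slides were compared with limma's moderated F test. Relations over mice used 100000 permutations, or all 720 orders of 6 mice, where the smallest p is 0.00278. The spread test was tested on simulated data. With 1 array a mouse, p-values rest on the spread between these 10 arrays, whose number limits the precision. No spot was saturated, and median Cy5 signals were 54.8 to 81.3 per array.

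The rule for the members uses names alone, but members, gene lists and tests were chosen with earlier results of these data known. Genes with the largest SD, a mouse far from the others or a place in the 18 relations were described in full, with at most 3 genes of each pathway list. Alternatives were other background, centring and filter settings, the scanner's and the deposited values, all probes, an unpaired F test, the slide as a block and leaving out mice. Leaving out mice 4, 5, 6 and 7 was added after seeing the data. Protein sequences were not used here.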

Additional observations from a re-analysis of the deposited data

Results flagged for a closer look

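A single mouse lay far from the other 9 in 3 of the 66 genes and gene lists examined, measured as its gap to the nearest mouse over the whole range, where values above 0.466 stand out for 10 samples. Chance alone gives such a gap in about 1 in 20 groups. *Kdm3a* had a ratio of 0.527, with mouse 2 highest, and was the only one of the 34 dioxygenase genes tested. The sperm markers had 0.568 with mouse 2 highest, at a mean log2 ratio of -0.34. The epididymis markers had 0.511 with mouse 3 highest, at 0.76 against -0.09 to 0.33 in the other mice, over 2 tested genes of 10. The 7 sperm genes and 8 epididymis genes not tested were not well above background on enough arrays.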

How the results depend on the processing

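The number of genes with a larger Cy5 spread, 18 of 34, was 8 with median centring, 4 without normalization between arrays, 11 with the slide as a block and 3 without mice 4, 5, 6 and 7. The shares of all genes in these settings were 41.2%, 19.4%, 43.9% and 15.9%. When 1 mouse was left out the number ran from 12 to 17 of 34, against 56.3% to 60.1% of all genes. *Asph* and *Phyh* were called under every alternative run, and without normalization between arrays *P4ha1* and *Plod2* were too. Median centring moved the median log2 ratio of all probes from -0.01 to 0.36, and the SD of 22 of the 34 genes by over 1.5 times, against 9 with the log ratio given by the scanner software, 9 with the authors' normalized values and 0 without background subtraction. Without normalization between arrays 19.4% of all genes passed. The pathway counts were then 4 of 17 for other dioxygenases, 0 of 11 for collagen partners, 1 of 16 for histone methyltransferases and 3 of 8 for DNA methylation. They were 1 of 9 for m6A, 1 of 12 for carnitine and phytanate, and 3 of 17 for oxoglutarate and ascorbate supply. The cause of these shifts was not tested.

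With median centring 6 of the 18 relations passed by Pearson's r, those of *P4ha2*, *Plod1*, *Kdm3a* and *Kdm4b* with the HIF targets, *Plod3* with collagen and *Phyh* with adipocyte markers. None passed by Spearman's rho (permutation test, lowest adjusted p = 0.0613). Without the 2 farthest mice r in these 6 lay between 0.28 for *Kdm3a* and 0.94 for *Phyh*. In this setting the median log2 ratio of all tested probes was -0.14 in mouse 3 against 0.27 to 0.53 in the others, and its part in these r was not tested. Pearson's r changed sign as follows, in relations none of which passed in the setting reported. Without background subtraction it was -0.0315 for *Kdm4b* with the HIF targets and -0.0202 for *Kdm6b* with macrophage markers, and with the scanner's ratio -0.21 for the latter. Median centring gave 0.915 for *P4ha1* with the HIF targets, 0.907, 0.916 and -0.103 for *P4ha1*, *P4ha2* and *P4ha3* with collagen, and 0.681 and 0.801 for *Fto* and *Alkbh7* with adipocyte markers. The deposited values gave 0.382, -0.376 and -0.0416 for *P4ha1*, *Plod1* and *Kdm3a* with the HIF targets, 0.589, 0.279 and -0.00407 for *P4ha1*, *P4ha2* and *P4ha3* with collagen, -0.063 for *Kdm3a* with sperm markers, -0.471 and -0.0955 for *Kdm6b* and *Tet2* with macrophage markers, and 0.264 and 0.57 for *Fto* and *Alkbh7* with adipocyte markers. The mean over all probes of a gene gave 0.0949 for *P4ha1* and -0.0146 for *Kdm4b* with the HIF targets. Leaving out 1 mouse gave -0.756 (without mouse 2) to 0.732 for *Kdm3a* with sperm markers. No paired analysis was possible because all samples belong to 1 group, so that no replicate numbers are shared between groups, and the pairing in the spread test is that of the dyes of an array.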
